A study of Mus musculus with 19 samples.

Results

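The transcripts described here are those of 4 activity-induced early genes, Arc, Fos, Junb and Egr1, followed across FMRP CLIP libraries from hippocampal area CA1 of mice. They were chosen by Ensembl transcript identifier, 5 among the 49932 transcripts that any library lists. ENSMUST00000023268 and ENSMUST00000110009 were taken as Arc, ENSMUST00000021674 as Fos, ENSMUST00000064922 as Junb and ENSMUST00000064795 as Egr1. The gene names came with the list of identifiers, and no table used here pairs them with genes, so the names were not checked against an annotation. The same holds for other early genes and for markers of cell types, which were not analysed here.

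The libraries came from Camk2a-Cre x Fmr1 cTag mice, a genotype meant to put the purification tag on FMRP where Cre is made, and Camk2a, whose promoter drives that Cre, is a gene of excitatory forebrain neurons. Groups with AAV-ChR2, a virus carrying a light-gated cation channel, are called opto, and those with AAV-Control are called control. There were 4 opto and 4 control libraries at 5 min after activation and 4 of each at 30 min. A further 3 noCre libraries measured the background of the purification, although their genotype and cell type labels read as Cre-positive. All the tissue came from acute slices, was crosslinked with ultraviolet light after the activation step and was kept in cycloheximide, which holds ribosomes on the RNA. The field that marks the 5 min files as new is absent from the 30 min libraries, so time and deposit cannot be told apart.

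Early genes are transcribed within minutes of neuronal firing, without the need for new protein. Arc protein acts at synapses, where it promotes the internalisation of AMPA receptors, and its mRNA is carried into dendrites. Fos and Junb are subunits of the AP-1 transcription factor, and Egr1 is a zinc finger transcription factor. FMRP, the protein lost in fragile X syndrome, binds mRNA, much of it in coding sequence, and is known for holding back translation. A CLIP tag is a piece of RNA crosslinked to the protein, so a transcript's share of tags depends on both how much of the RNA is present and how much of it FMRP touches. In these libraries more binding per RNA, more RNA per cell and more cells cannot be told apart.

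Fos and Junb are shown with the sequence just before their starts, because the list was made for activity-induced genes and a shared promoter element is a feature that the choice of identifiers did not use. Both sequences are the 250 bases before the RefSeq start (GRCm38.p6, the assembly of the mm10 build named in the submitters' processing notes), written 5′ to 3′ on the strand of the gene, and 2 of the 4 genes matched the promoter table. Capitals mark matches on either strand to TGACG, the core of the cyclic AMP response element, to TATAAA and to CCAAT. No match overlapped another. Fos, chr12:85473640-85473889 on the plus strand, and Junb, chr8:84978749-84978998 on the minus strand, read as follows.
Fos: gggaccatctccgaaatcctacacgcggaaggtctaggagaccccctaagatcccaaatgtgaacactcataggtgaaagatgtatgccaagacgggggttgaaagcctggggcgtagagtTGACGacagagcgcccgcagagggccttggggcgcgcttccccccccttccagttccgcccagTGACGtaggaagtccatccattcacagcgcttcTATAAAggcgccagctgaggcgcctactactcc
Junb: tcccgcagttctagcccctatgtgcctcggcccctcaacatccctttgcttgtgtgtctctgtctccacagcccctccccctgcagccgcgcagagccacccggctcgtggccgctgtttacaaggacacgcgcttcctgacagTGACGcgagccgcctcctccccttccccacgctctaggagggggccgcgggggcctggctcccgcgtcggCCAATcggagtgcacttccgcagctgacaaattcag
Fos held TGACG at positions -129 and -66 from the start, and Junb held it at -106. Of 32851 promoter windows of the same length, 17.8% held it too. Fos held TATAAA at -33 (12.4% of windows) and Junb held CCAAT at -36 (33.8% of windows). The CArG box, the core of the serum response element, had no match in either window and was found in 1.47% of all. Sequence farther than 250 bases before the start was not searched, so neither gene is shown to lack the element. FMRP tags are counted on RNA and do not measure these elements. The RefSeq genes span chr15:74669081-74672570 for Arc, chr12:85473890-85477274 for Fos and chr8:84976909-84978748 for Junb.

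The Cre-positive libraries held 20456 to 341445 tags. Totals here are sums over all listed transcripts, so a tag listed on several identifiers would count more than once. The shallowest group was opto at 30 min, with 20456 to 121972 tags, and the noCre libraries held 34 to 5557. Values are given as CPM, here tags of the transcript per 1000000 tags of its library without further scaling, and intervals and limits on them cover counting error only. Tags were not divided by transcript length, so levels are compared between libraries and not between genes. The labels do not say that replicates came from separate animals, so the tests measure the spread between these libraries, which may be technical.

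The 2 Arc identifiers had the same number of tags in every one of the 19 libraries and are treated as 1 measurement, so their values are uncertain as to isoform. Over the 16 Cre-positive libraries Arc had 193 tags, Junb 199, Fos 344 and Egr1 435. Arc, Fos and Egr1 were each listed in 16 of the 19 libraries and Junb in 15. All 5 identifiers passed the filter on low counts.

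Arc, the synaptic effector of the list, had no difference between opto and control that passed the test at either time, and its 5 min controls lay far apart. In the 5 min controls it stood at 55.6, 24.9, 138 and 230 CPM in replicates 1 to 4, on 19, 1, 15 and 48 tags, with mean 112 ± 91.8 (SD, n = 4). In the 5 min opto libraries it stood at 46.7, 61.1, 66.9 and 130 CPM, a mean of 76.2 ± 36.9 (SD, n = 4). Control replicate 4 was the highest of all 16 libraries, control replicate 2 was below every opto library, and the groups overlapped.

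The 5 min log2 fold change of Arc, opto over control, was -0.83 (SE 0.44, edgeR adjusted p = 1.00, unadjusted p = 0.0650), with a 95% interval of 0.303-fold to 1.05-fold. Arc was lower in opto in 3 of 4 pairs of the same replicate number, and the exact two-sided permutation test of the shares gave p = 0.600. Pooled, the opto libraries had 42 Arc tags where the control share would give 75.2, a ratio of 0.558 with a 95% interval of 0.376 to 0.819, which covers counting error only and leaves out the spread between the controls. The size of this difference rested on single controls. Without control 5 min replicate 4 the log2 fold change was -0.11, and without control 5 min replicate 1 it was -1.24 (unadjusted p = 0.00478, edgeR adjusted p = 0.999).

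At 30 min Arc stood at 24.5, 109, 88.6 and 82.8 CPM in the controls, a mean of 76.3 ± 36.3 (SD, n = 4). The opto libraries had 97.8, 170, 73.8 and 47.9 CPM, a mean of 97.4 ± 52.6 (SD, n = 4), on 2 to 9 tags each. The groups overlapped, with opto higher in 2 of 4 pairs. The log2 fold change was 0.04 (SE 0.58, edgeR adjusted p = 0.998), with a 95% interval of 0.452-fold to 2.34-fold, and the exact permutation p of the shares was 0.543. Its sign was opposite with depth as a covariate (-0.11) and without opto 30 min replicate 2 (-0.23), so no direction is given. Pooled over the group, 18 opto tags were seen where the pooled control share would give 18.1. In order of mean share the groups of Arc ran from the 5 min controls through opto at 30 min and the 30 min controls to opto at 5 min, and no neighbours in this order differed by more than 1 SD of either group.

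**Figure D1:**
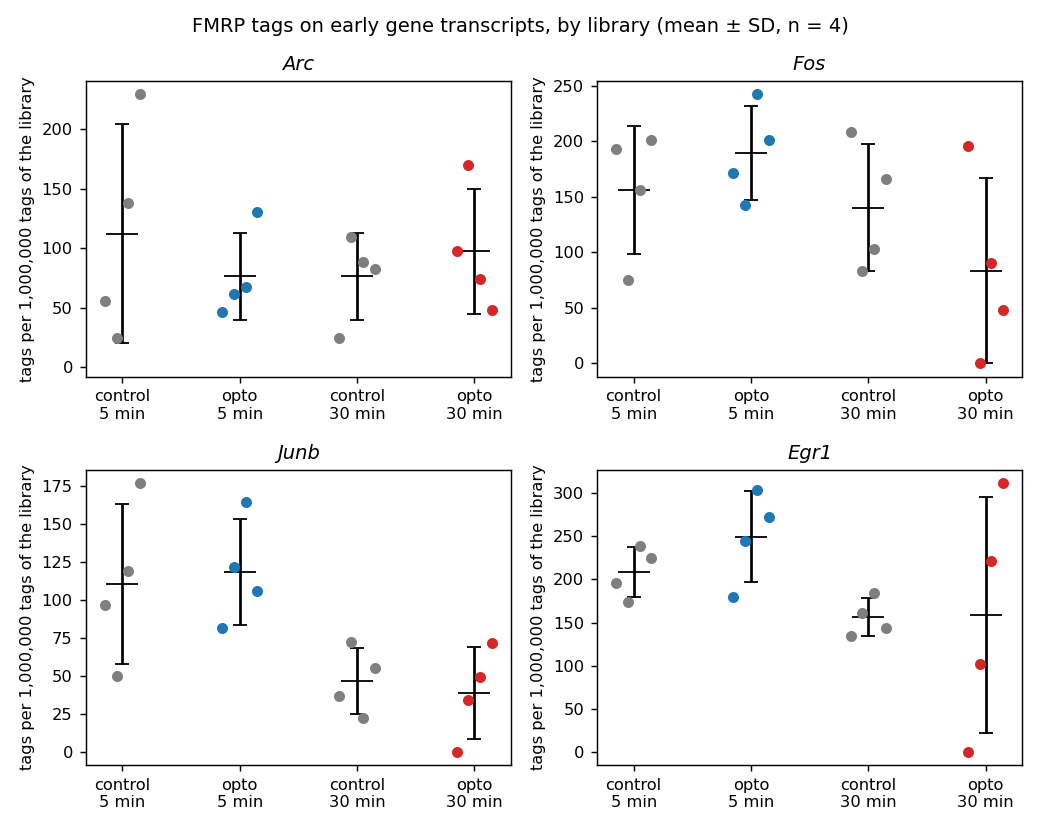
Each point is a library and gives the tags on a transcript per 1000000 tags of that library (linear axis), in the control and opto groups at 5 and 30 min, with black bars for mean ± SD (n = 4). Opto and control points overlap in all 8 comparisons, and the 5 min opto points of Junb, from 81.8, lie above its 30 min opto points, which reach 71.9.

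Among its own groups Fos had the lowest mean share in opto at 30 min, and its difference from control there did not pass the test. Its 30 min controls stood at 208, 83.1, 103 and 166 CPM, a mean of 140 ± 57.5 (SD, n = 4). The 30 min opto libraries stood at 196, 0, 90.2 and 47.9 CPM, on 4, 0, 11 and 2 tags, with mean 83.4 ± 83.3 (SD, n = 4). The 0 in replicate 2, of 29396 tags, allows up to 102 CPM, which reaches above the lowest control.

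Fos was lower in opto in 4 of 4 pairs at 30 min, as 11.0% of the 2871 tested transcripts were. The groups overlapped, with opto replicate 1 above 3 of the 4 controls and opto replicate 3 (90.2 CPM) above control replicate 2 (83.1 CPM). Pooled, the opto libraries had 17 tags where the control share would give 27.8, a ratio of 0.611 with a 95% interval of 0.338 to 1.04 from the counts alone. The log2 fold change was -0.77 (SE 0.48, edgeR adjusted p = 0.636, unadjusted p = 0.110), with a 95% interval of 0.296-fold to 1.17-fold. The exact permutation p was 0.286, and the exact sign-flip p over the pairs was 0.125, the smallest that 4 pairs can give. Without opto 30 min replicate 2 the log2 fold change was -0.51, and without opto 30 min replicate 1 it was -1.07 (edgeR adjusted p = 0.524).

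At 5 min Fos stood at 193, 74.7, 156 and 201 CPM in the controls, a mean of 156 ± 57.8 (SD, n = 4). In opto it stood at 171, 142, 242 and 201, a mean of 189 ± 42.5 (SD, n = 4). Opto was higher in 2 of 4 pairs and the groups overlapped. Opto over control was 0.14 as a log2 fold change (SE 0.30, edgeR adjusted p = 1.00), with a 95% interval of 0.721-fold to 1.69-fold, and the exact permutation p was 0.457. Without opto 5 min replicate 3 the sign was opposite, at -0.011. The groups of Fos ran, from high to low mean, as opto at 5 min, control at 5 min, control at 30 min and opto at 30 min, and neighbours lay within 1 SD of each other.

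Junb, the other AP-1 subunit, had means that lay closer together between opto and control than between the times. Its 5 min controls stood at 96.6, 49.8, 119 and 177 CPM, a mean of 111 ± 52.9 (SD, n = 4), and its 5 min opto libraries at 81.8, 122, 165 and 106, a mean of 119 ± 34.9 (SD, n = 4). The log2 fold change at 5 min was -0.03 (SE 0.32, edgeR adjusted p = 1.00), with a 95% interval of 0.619-fold to 1.55-fold and an exact permutation p of 0.800, and its sign was opposite with DESeq2.

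At 30 min Junb stood at 36.8, 72.7, 22.1 and 55.2 CPM in the controls, a mean of 46.7 ± 22.0 (SD, n = 4), on 3, 14, 3 and 10 tags. In opto it stood at 0, 34.0, 49.2 and 71.9 CPM, a mean of 38.8 ± 30.2 (SD, n = 4), on 0, 1, 6 and 3 tags. The 0 in opto replicate 1, of 20456 tags, allows up to 147 CPM, above every 30 min control. Pooled, 10 opto tags were seen where the control share would give 10.8. The log2 fold change was -0.12 (SE 0.60, edgeR adjusted p = 0.989), with a 95% interval of 0.392-fold to 2.17-fold and an exact permutation p of 0.657. Its sign was opposite in the fits with the replicate block, with depth as a covariate and with limma, so no direction is given. The groups of Junb ran, from high to low mean, as opto at 5 min, control at 5 min, control at 30 min and opto at 30 min, and the step from control at 5 min to control at 30 min was more than 1 SD of either group.

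Egr1 had the most tags of the list and the narrowest intervals. Its 5 min controls stood at 196, 174, 239 and 225 CPM, a mean of 209 ± 28.9 (SD, n = 4), and its 5 min opto libraries at 179, 244, 304 and 272, a mean of 250 ± 53.0 (SD, n = 4). Opto was higher in 3 of 4 pairs, with replicate 1 inside the range of the controls. As a log2 fold change, opto over control was 0.23 (SE 0.27, edgeR adjusted p = 1.00), with a 95% interval of 0.800-fold to 1.72-fold, and the exact permutation p was 0.200. A rise of 2-fold in the share lay outside this interval.

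At 30 min Egr1 stood at 135, 161, 185 and 144 CPM in the controls, a mean of 156 ± 21.9 (SD, n = 4). The opto libraries stood at 0, 102, 221 and 312, a mean of 159 ± 136 (SD, n = 4), on 0, 3, 27 and 13 tags. Replicates 3 and 4 lay above all the controls and replicates 1 and 2 below. The 0 of replicate 1 allows up to 147 CPM, above controls 1 and 4, and the 3 tags of replicate 2 have an exact 95% interval of 21.0 to 298 CPM, so at this depth neither can be placed below the controls. Pooled, 43 opto tags were seen where the control share would give 33.6, a ratio of 1.28 with a 95% counting interval of 0.869 to 1.85. Its log2 fold change was 0.29 (SE 0.35, edgeR adjusted p = 0.848), with a 95% interval of 0.741-fold to 2.00-fold, and the exact permutation p was 0.971. Without opto 30 min replicate 4 it was -0.020, so no direction is given. The means of Egr1 ran from opto at 5 min through control at 5 min and opto at 30 min to control at 30 min, and each step was within 1 SD of at least 1 of its groups.

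Across the list, 0 of the 4 genes had an adjusted p under 0.05 for opto over control at 30 min, where 0.0348% of the 2871 tested transcripts did, and 0 of 4 at 5 min, where 0% did. At 5 min edgeR gave 53 transcripts with an unadjusted p under 0.05, and DESeq2 and limma also called 0. At 30 min edgeR gave 241, and none of the 4 genes was among them. The groups of opto and control overlapped for all 4 genes at both times, against 4.84% of tested transcripts without overlap at 30 min and 2.19% at 5 min. The exact permutation test of 4 against 4 libraries cannot go below 0.0286. The median log2 fold change of all tested transcripts was -0.02 at 30 min and -0.0008 at 5 min. With the replicate number as a block, 9 transcripts passed at 30 min in place of 1, and none of the 4 genes was among them (edgeR adjusted p 0.594 to 0.984).

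**Figure D2:**
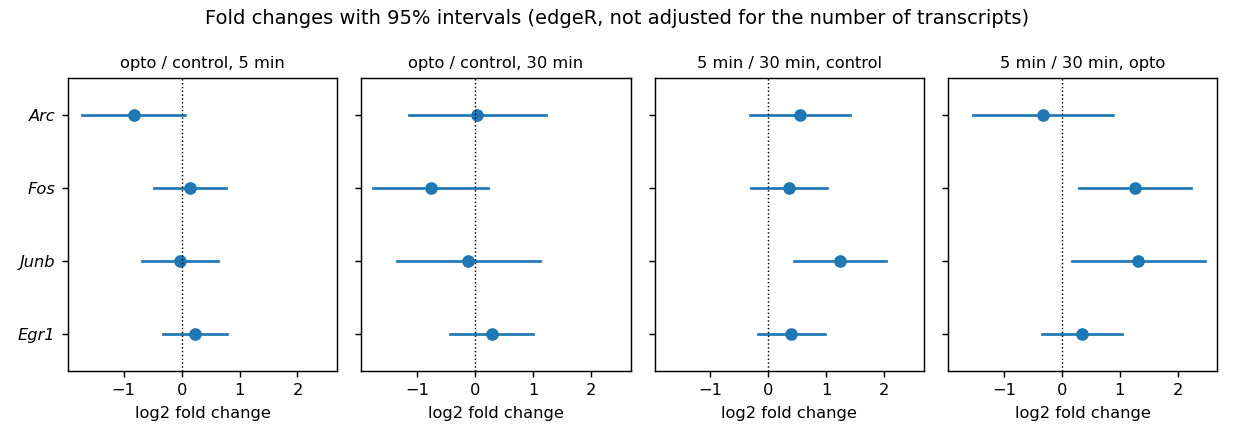
Points are log2 fold changes and lines their 95% intervals from edgeR, without adjustment for the number of transcripts, for opto over control at each time and for 5 min over 30 min within the controls and within opto. All 8 intervals of opto over control include 0, and those for 5 min over 30 min exclude 0 for Junb in both arms and for Fos in opto. Junb met the filter on low counts only through its 5 min libraries, so its intervals over time only describe it. The opto comparison over time was added after the data were seen, and 17.0% of tested transcripts had an unadjusted edgeR p under 0.05 there.

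The responses at the 2 times were also compared directly, as the 30 min log2 fold change less the 5 min one. The difference was 0.87 for Arc (SE 0.73, edgeR adjusted p = 0.791) and -0.91 for Fos (SE 0.57, edgeR adjusted p = 0.730). It was 0.06 for Egr1 and -0.09 for Junb, both with an edgeR adjusted p of 0.994 and with signs that turned under other settings. None passed, and 0.0348% of tested transcripts did, 1 transcript, or 5 with the replicate block. The difference of Arc was 0.12 without control 5 min replicate 4.

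Over time, the mean share of Junb was higher at 5 min than at 30 min in both arms, and neither difference passed the adjusted test. Junb met the filter on low counts only through its 5 min libraries, as its 30 min libraries reached at most 72.7 CPM. Its place among the tested transcripts is thus tied to this difference, and the values for Junb here only describe it. In the controls its log2 fold change, 5 min over 30 min, was 1.24 (SE 0.39, unadjusted p = 0.00240, edgeR adjusted p = 0.256), and in the opto libraries it was 1.32 (SE 0.56, unadjusted p = 0.0153, edgeR adjusted p = 0.169). Of the 2871 tested transcripts, 256 (8.92%) had an edgeR unadjusted p under 0.05 between the controls and 487 (17.0%) between the opto groups. The 5 min opto libraries all lay above the 30 min ones, as did those of 5.40% of tested transcripts, and the controls overlapped, where 5.50% of transcripts did not. The 30 min side of this separation held 0, 1, 6 and 3 tags, and the 0 allows up to 147 CPM, above 3 of the 4 opto libraries at 5 min. At an adjusted p of 0.05, 0.174% of tested transcripts passed between the controls and 0.244% between the opto groups, and 0 of the 4 genes did in either. These are 5 and 7 transcripts, or 8 and 24 with the replicate number as a block, again with none of the 4 genes. The second count was unstable, from 0 without opto 30 min replicate 4 or opto 5 min replicate 1 to 55 without opto 5 min replicate 4, 32 with DESeq2 and 94 with limma, so the share of 0.244% is a loose background. The first ran up to 18, with the control libraries alone. Without control 5 min replicate 4, its highest library, the control value of Junb was 0.90 (edgeR adjusted p = 0.677).

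Fos went the same way in the opto libraries, at 1.26 on the log2 scale for 5 min over 30 min (SE 0.47, unadjusted p = 0.00775, edgeR adjusted p = 0.137). In the controls it was 0.35 (SE 0.32, edgeR adjusted p = 0.885). Egr1 gave 0.34 in opto (SE 0.34, edgeR adjusted p = 0.658) and 0.40 in the controls (SE 0.29, edgeR adjusted p = 0.791). Arc gave -0.33 in opto (SE 0.59, edgeR adjusted p = 0.836) and 0.54 in the controls (SE 0.42, edgeR adjusted p = 0.827), and the latter was -0.17 without control 5 min replicate 4. The comparison of the opto groups was added after the data were seen. In it 17.0% of tested transcripts had an edgeR unadjusted p under 0.05, so such a p for Fos or Junb is common there. The 30 min side of this comparison is the shallowest group, and its 5 min side held 84614 to 256727 tags. With depth as a covariate edgeR gave Fos 1.14 (unadjusted p = 0.0288) and Junb 1.18 (unadjusted p = 0.0521), with 0 of 2871 transcripts passing. Depth and time largely go together between these groups, and the part of depth was not tested. DESeq2 gave Fos 1.30 and Junb 1.39 between the opto groups (unadjusted p = 0.00790 and 0.0223), with no adjusted p for any of the 4 genes.

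**Figure D3:**
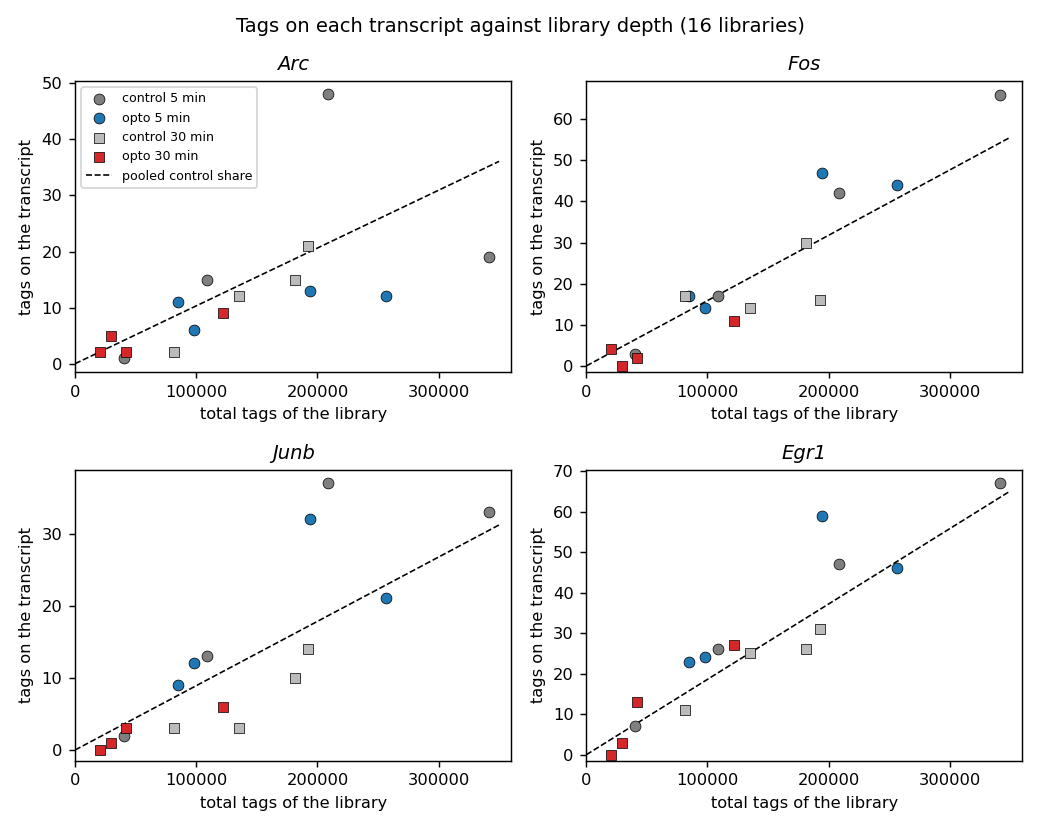
Tags on each transcript (vertical axis) are plotted against the total tags of the library (linear axes), for the 16 Cre-positive libraries. The dashed line is the pooled control share. The 30 min opto squares have 0 to 27 tags and lie at 20456 to 121972 total tags, a range that libraries of other groups share in part.

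The spread among libraries differed within the list. The tags of Arc, set within each group against what the library totals alone would give, varied 4.29 times as much as counting error (chi-square over degrees of freedom, 16 libraries in 4 groups). In the 842 transcripts within 1.2-fold of its tags the median was 1.22, and the middle 80% ran from 0.694 to 2.46. The excess of Arc lay in the 5 min controls, which alone gave 12.2. The other groups gave 2.23 (opto at 5 min), 1.63 (control at 30 min) and 1.14 (opto at 30 min) for Arc, each below at least 1 of the other genes in that group. The ratio was 2.00 for Fos, 1.79 for Junb and 1.52 for Egr1, beside medians of 1.40, 1.21 and 1.60 among transcripts of like tag number. The biological coefficient of variation fitted by edgeR was 0.349 for Arc, 0.230 for Junb, 0.194 for Fos and 0.162 for Egr1, with 0.192 over all tested transcripts. In the 16 sets of 4 values formed by gene and group, no single library stood apart by Dixon's test at 95%.

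The background held Fos and Egr1 tags and no Arc or Junb tags. Fos and Egr1 each had 5 tags among 5557 in noCre replicate 3, or 900 CPM (95% exact Poisson interval 292 to 2100), and 0 tags in replicates 1 and 2, which held 887 and 34. The lower end of that interval was above the highest control library, at 208 for Fos and 239 for Egr1. The highest opto library stood at 242 CPM for Fos, below that lower end, and at 312 CPM for Egr1, above it. Pooled noCre stood at 4.86 times the pooled control share for Fos and 4.15 times for Egr1. Among the 2071 transcripts with at least as many Cre-positive tags as Arc, 63 (3.04%) were over 4-fold higher in pooled noCre, 716 (34.6%) were higher at all and 892 had 0 noCre tags. The excess of Fos and Egr1 rests on 1 library, and its part in their values after activation was not tested. For Arc and Junb, 0 of 6478 noCre tags allows up to 463 CPM, above their pooled control shares of 103 and 89.1, so their background was not detectable at this depth.

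**Figure D4:**
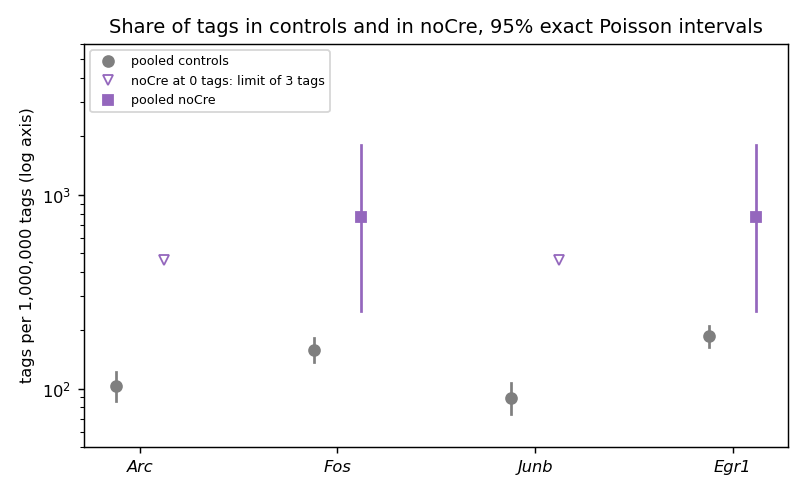
Pooled shares of tags in the 8 control libraries (circles) and the 3 noCre libraries (squares), in tags per 1000000 on a log axis, with 95% exact Poisson intervals that cover counting error only. Open triangles mark the limit that 0 tags allow, 463, for Arc and Junb, and the noCre intervals of Fos and Egr1, from 251, lie above their control intervals.

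The transcripts whose shares followed Egr1 most closely over the 16 Cre-positive libraries were ENSMUST00000165033 and ENSMUST00000032069, by the correlation of log2(CPM + 1). Pearson's r with Egr1 was 0.997 for ENSMUST00000165033 and Spearman's rho was 0.991, and r was 0.963 without opto 30 min replicates 1 and 2, the libraries farthest from the median of Egr1. ENSMUST00000165033 had 380 tags, never more than Egr1 in a library and at most 11 fewer. It may be another isoform of Egr1 that holds the same tags, which no table used here settles, so its r is not taken as that of a separate transcript. For ENSMUST00000032069 r was 0.977 and rho 0.662, and r was 0.665 without the same libraries, so its high r rests on them. Both transcripts, like Egr1 and Junb, were at 0 in opto 30 min replicate 1, the shallowest library. Junb followed Egr1 with an r of 0.929 and a rho of 0.712, and with an r of 0.593 without those libraries. For Fos r was -0.012, and -0.070 without them. For Arc it was -0.097, and 0.313 without them, so its sign rests on those libraries, and shared library depth enters all of these values.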

How the data were processed

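FMRP CLIP tags were counted in 19 libraries of mouse hippocampal CA1 tissue. Per the file headers, each deposited table pairs Ensembl transcript identifiers with counts of FMRP CLIP tags, which are whole numbers and not normalized. No listed value is below 1, and an unlisted transcript was given 0. The submitters' processing notes name cutadapt, STAR and mm10; the annotation release, the handling of duplicates and the assignment of tags to isoforms are not given in the sources used here.

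Groups came from the titles. The test was edgeR's (4.0.16, R 4.3.3; TMM scaling, filterByExpr with a minimum count of 10 and total of 15, quasi-likelihood F-test) with all 16 Cre-positive libraries and 4 group means in the same model, and p-values were adjusted over the 2871 tested transcripts (Benjamini-Hochberg, threshold 0.05). Standard errors and 95% intervals came from the fitted weights and the quasi-likelihood dispersion. Tested transcripts held 64.8% to 70.9% of each library's tags, and scaling factors ran from 0.934 to 1.07. The fitting script was tested on simulated data. Shares of all tags were compared by exact two-sided permutation tests, and pooled tags carry exact 95% intervals. A count of 0 was taken to allow 3 tags. Python 3.11.15, numpy 2.4.6, scipy 1.17.1, pandas 2.3.3 and matplotlib 3.10.9 were used.

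The named transcripts were all 5 members and the 2 most like the member with the most tags. The members and lists were chosen with earlier results of these data known. Further early genes and cell type markers could not be matched, since the RefSeq table (GRCm38.p6) pairs none of its genes with transcript identifiers of this kind.

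Pairing by replicate number was judged from the data. An opto library and the control of its number, each less its group mean, correlated at 0.202 to 0.689 in 8 of 8 pairs (334 transcripts of 50 tags or more on average), and at 0.0915 to 0.332 over all 2871. On the first measure the pairs entered an alternative fit as a block, the counts of pairs and the sign-flip test. The main fit and the exact permutation tests left the libraries unpaired. The block used the pairs within each time, or the replicate number for comparisons between times. Alternatives covered scaling (DESeq2 1.42.0 size factors, library totals), the filter (none, or 20 tags on average), thinning to 20456 tags, depth as a covariate, the libraries of a contrast alone, the block, DESeq2, limma 3.58.1 voom and leaving out each library.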

Additional observations from a re-analysis of the deposited data

How the results depend on the processing

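Of 442 alternative values for the 4 genes, 399 kept their direction and 43 did not; the cause was not tested unless stated. Of the 438 with an adjusted p (an exact p for shares), 0 were under 0.05; DESeq2 gave none for the 4 genes between the opto groups. Without the filter on low counts, opto over control at 30 min was -0.22 (log2) for Arc and -0.0058 for Egr1, and the difference between times was -0.21 for Egr1. This setting moved the median of all transcripts to -0.24 at 30 min and -0.58 for the difference, and relative to these medians the values were 0.017, 0.23 and 0.38, the direction of the main values. With depth as a covariate, Arc at 30 min was -0.11, Junb at 30 min 0.023 and the difference of Junb 0.026. With the replicate block the last values for Junb were 0.13 and 0.15, and with limma voom 0.10 and 0.19. DESeq2 gave 0.019 for Junb at 5 min. On the log2(CPM + 1) scale, opto less control of the Egr1 share at 30 min was -1.59. The replicate block turned no other direction and changed no call of the 4 genes.

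Leaving out 1 library at a time, log2 fold changes of opto over control at 30 min ran from -0.23 to 0.21 for Arc, -0.020 to 0.46 for Egr1 and -0.38 to 0.18 for Junb. At 5 min they ran from -0.011 to 0.25 for Fos and -0.28 to 0.31 for Junb. The difference between times ran from -0.26 to 0.22 for Egr1 and -0.46 to 0.20 for Junb, and 5 min over 30 min in the controls from -0.17 to 0.96 for Arc. Differences of mean shares (CPM) ran at 30 min from -3.09 to 37.6 for Arc, -48.2 to 55.7 for Egr1 and -19.0 to 4.99 for Junb, and at 5 min from -64.8 to 3.47 for Arc and -12.2 to 30.2 for Junb. The lowest adjusted p of any alternative was 0.0923, for Fos between the opto groups. Counts of transcripts called ran over the alternatives from 0 to 9 at 30 min (1 as reported), 0 to 5 for the difference (1), 0 to 18 between the controls (5) and 0 to 94 between the opto groups (7), and were 0 throughout at 5 min.

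Depth limits the 30 min values, where opto libraries held 0 to 27 tags per gene. Thinned to 20456 tags, no gene of the list passed the filter, and with a mean of at least 20 tags Arc and Junb did not, so these alternatives gave no value. With the libraries of 1 contrast alone, Arc and Junb gave none at 30 min or between the opto groups.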
